A study of Drosophila melanogaster with 6 samples.

Results

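The 10 genes described here carry the signal of 2 receptor tyrosine kinases, Torso and the EGF receptor, through the shared Ras to ERK kinase cascade in *Drosophila melanogaster*. They were chosen by name: tor, tsl, trk, grk, Egfr, csw, Ras85D, phl, Dsor1 and rl. All 10 were found among the 14862 genes of the authors' deposited table, and all 10 had a likelihood ratio above 0, as had 13080 genes in all. Stage 14 oocytes, the last stage of oogenesis, were the labelled source of 6 RNA samples, each made from 200 oocytes. The genotype was given as GFP control for 3 samples and as InR-DN for the other 3, and series and labels together describe InR-DN as expressed to suppress insulin signalling. InR is the insulin receptor, and the study asks which genes of the oocyte respond when its signalling is suppressed. The driver of the transgenes, the age of the mothers and any allele shared by both groups are not given in the labels. Flies of all groups were kept on standard food with yeast paste.

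Torso is a receptor that the mother supplies to the whole surface of the early embryo and that is activated only at the embryo's ends, where it sets the terminal fate. The EGF receptor acts earlier, in the follicle cells around the oocyte, where it reads the Gurken signal sent by the oocyte and so sets the body axes. Both receptors pass their signal through Ras to Raf, MEK and ERK, a chain of kinases that works by phosphorylation of proteins, which RNA sequencing does not measure.

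None of the 10 genes was called by the authors' test at an adjusted p under 0.05. Taken singly, each gene had a 95% interval, defined below, that did not reach 2-fold on the positive or the negative side. Changes smaller than 2-fold are not excluded. The authors' deposited table compares 2 groups gene by gene and lists for each a likelihood ratio with its p-value, raw and adjusted, beside the log2 fold change and the average log2 CPM, which is the read count scaled to library size on a log2 scale. It holds no value per sample, so the level in each sample, the overlap of the groups and the depth of each library are unknown here. Which group stands in the numerator is not stated in the header, so a positive or negative sign is given as deposited and not assigned to GFP control or InR-DN. The table's title calls the samples embryos, whereas the labels name oocytes. An SE is implied by the fold change and the likelihood ratio, and a 95% interval was taken as 1.96 SE on either side. This SE rests on the model fitted by the authors, and the spread between the 3 samples of a group was not measured directly. Nothing in the labels says that the 3 samples came from separate crosses, so the p-values may measure technical spread.

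The average levels of the 10 genes spanned a wide range once divided by the length of their exons in the Ensembl annotation. That length joins the exons of all annotated transcripts, for instance 7591 bp over 7 transcripts for rl and 882 bp over 1 for trk. The order may depend on this choice, and no other length was tried. Ras85D, the small GTPase that switches the cascade on, had the highest level, with an average of 124 CPM per kb of exon from the authors' deposited table. Dsor1, which encodes MEK, followed at 35.2 CPM per kb and rl, which encodes ERK, at 24.9 CPM per kb, both from the authors' deposited table. The receptors lay in the middle of the order, with Egfr at 21.5 and tor at 16.6 CPM per kb from the authors' deposited table. On either side of tor stood phl, which encodes Raf, at 17.4 CPM per kb and csw, which encodes a tyrosine phosphatase that relays the signal of both receptors, at 13.0 CPM per kb, again from the authors' deposited table. The lowest 3 were the genes upstream of the receptors. From the authors' deposited table, the average was 5.03 CPM per kb for grk, 3.87 for trk and 1.97 for tsl. The highest level was thus 62.8 times the lowest. These averages carry no error, so it cannot be said which neighbours in the order differ. They are also not known to be levels of the 6 samples, since the libraries that enter the average are not stated. The target gene tll, described below, has an average log2 CPM of 2.94 beside a fold change and likelihood ratio of exactly 0. Reads of other libraries may thus enter the averages and the order given here.

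**Figure D1:**
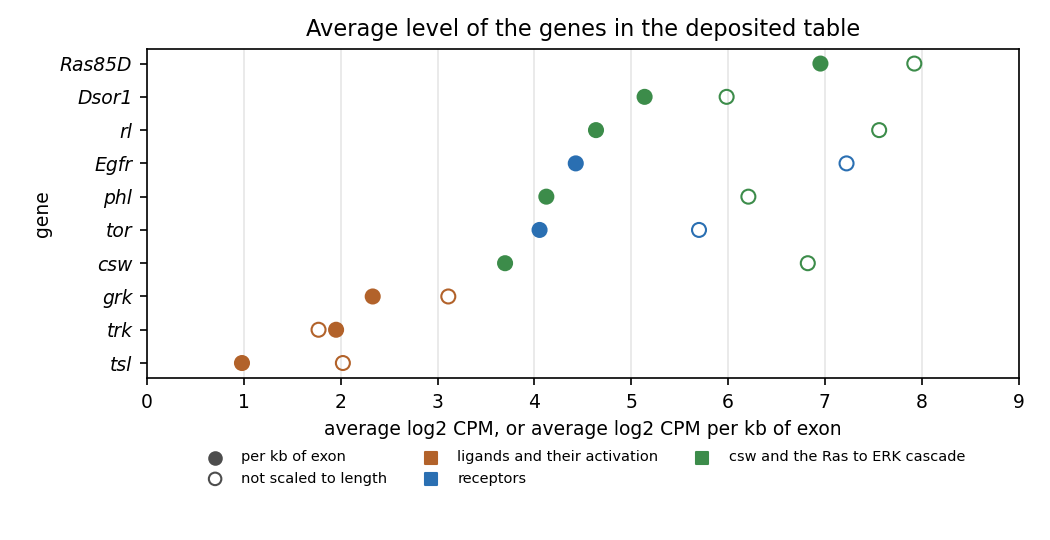
Average level of each gene from the authors' deposited table, with filled points for average log2 CPM per kb of exon, open points for average log2 CPM, and 1 colour for each role. Ras85D is at the top with 6.95 on the log2 scale per kb, and grk, trk and tsl are at the bottom with 2.33, 1.95 and 0.98.

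The ligands and the factors that activate them had small positive log2 fold changes, and none was called. Torso-like, the product of tsl, is secreted by follicle cells at the ends of the egg and is needed there for local activation of Torso. The log2 fold change of tsl was 0.27 (implied SE 0.26), and its p in the authors' deposited table was 0.31 before and 1.00 after adjustment. This amounts to 1.20-fold, with an interval from 0.840 to 1.72-fold. Trunk, the product of trk, is a secreted ligand of Torso made by the germ line. For trk the authors' deposited table listed 0.22 on the log2 scale, and its implied SE, 0.37, was the largest among the 10 genes. The interval of trk ran from 0.700 to 1.93-fold, so it came close to the 2-fold bound on the positive side. Gurken, the product of grk, is a ligand of the EGF receptor related to TGF-alpha. The authors' deposited table put grk at 0.04 on the log2 scale (implied SE 0.28), where the interval ran from 0.708 to 1.50-fold. In the annotation, 212 bp of the grk exons, 12.3% of their length, overlap exons of Akap200 on the opposite strand, and 23 bp of the trk exon overlap Mulk on the opposite strand. Akap200 had an average log2 CPM of 10.02 in the authors' deposited table, against 3.11 for grk. The use of strand in the authors' counting is not given in the sources used here, so reads in the shared bases cannot be told apart. Neither neighbour was called, and the authors' deposited table lists log2 fold changes of 0.02 for Akap200 and 0.17 for Mulk.

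The EGF receptor gene had the largest fold change of the 10, and it was not called. Egfr stood at 0.43 on the log2 scale (implied SE 0.21) in the authors' deposited table, which is 1.34-fold with an interval from 1.01 to 1.78-fold. Its interval was the only one of the 10 that did not span 0. The unadjusted p of Egfr by the authors' likelihood ratio test was 0.040 and the adjusted p was 0.42. A log2 fold change of 0.63 would have been needed for a call at this SE. Among the 1222 tested genes with an average log2 CPM within 0.5 of that of Egfr, 4.01% had a larger fold change in either direction and 7 were called. The other receptor gene, tor, stood at 0.17 (implied SE 0.20) with a raw p of 0.37, per the authors' deposited table. Its interval reached from 0.865 to 1.47-fold. The difference between Egfr and tor was not tested, as the table holds no values per sample.

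The 5 genes from csw to ERK lay near 0, and none was called. Their log2 fold changes ran from -0.08 to 0.10, and the median of these 5 values from the authors' deposited table was 0.02. Corkscrew, the product of csw, was at a log2 fold change of 0.07 (implied SE 0.22) in the authors' deposited table, and its interval was 0.782 to 1.42-fold. Ras85D, per the authors' deposited table, was at 0.02 (implied SE 0.33), which leaves an interval from 0.650 to 1.57-fold. At phl the log2 fold change was -0.05 (implied SE 0.26) per the authors' deposited table, and the interval was 0.677 to 1.37-fold. The narrowest bound was that of Dsor1, where the log2 fold change was 0.10 (implied SE 0.19) per the authors' deposited table, or 0.823 to 1.39-fold. The gene for ERK, rl, was at -0.08 (implied SE 0.37) per the authors' deposited table, and its bound of 0.574 to 1.56-fold was the widest of the 5. Tested genes with averages within 0.5 log2 CPM of rl had a median implied SE of 0.22, and those near Ras85D also 0.22, both below the SE of the gene itself.

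**Figure D2:**
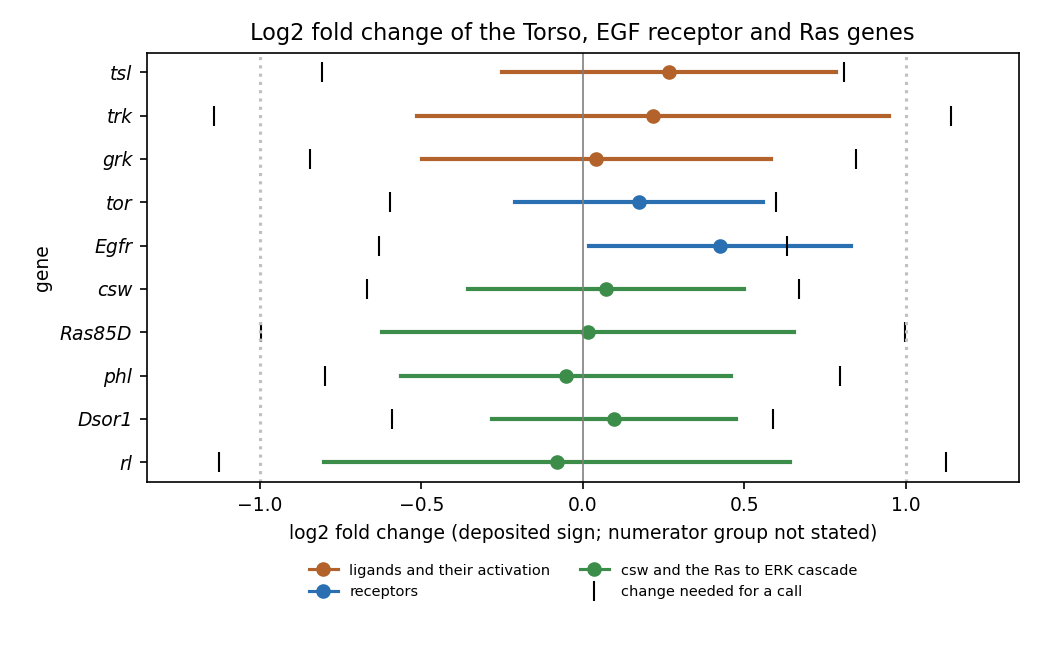
Log2 fold change of each gene in the authors' deposited table (points) with its 95% interval from the implied SE (lines). Vertical ticks mark the change that a call would need at the SE of that gene, and dotted lines mark a 2-fold change. All 10 intervals lie within the dotted lines, no point lies beyond its ticks, and Egfr at 0.43 is farthest from 0.

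Read together, 0 of the 10 genes passed an adjusted p of 0.05 in the authors' likelihood ratio test, against 5.10% of all 13080 tested genes. Called genes were rarer among the 6890 genes in the same range of average log2 CPM, from 1.77 to 7.92. There 2.95% were called, so that a count of 0 among 10 genes is near that background. The libraries that enter the average are not stated, so this range may not match the genes by level in the 6 samples. An unadjusted p under 0.05 was found for 1 of the 10, Egfr, against 11.4% of all tested genes and 6.79% of those in the same range. The 10 log2 fold changes had a median of 0.08, with 8 positive and 2 negative, while the median was 0.03 over all tested genes, of which 55.9% were positive. In size, their median was 0.09, against 0.11 for genes in the same range. Adjusted p-values in the authors' deposited table rounded to 1.00 for each of the 10 genes except Egfr. The test could have called a change of 0.59 on the log2 scale at the most precise of the genes, Dsor1, and of 1.14 at the least precise, trk, so smaller changes were not detectable. All 10 intervals stayed inside a 2-fold change on both sides, as did 86.6% of the intervals of genes in the same range.

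**Figure D3:**
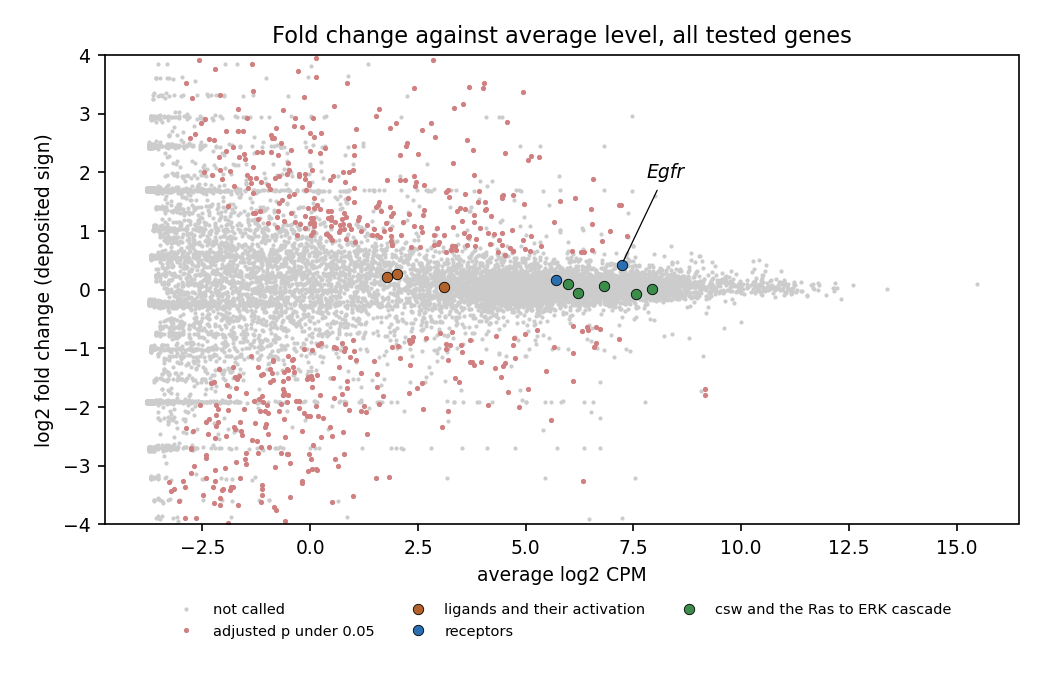
Log2 fold change against average log2 CPM for the tested genes of the authors' deposited table, with called genes in red and the 10 genes as large points coloured by role. The y axis stops at 4 in either direction and leaves out 135 genes. The 10 genes lie in the narrow band around 0, with Egfr at its upper side.

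The average log2 CPM of a gene did not by itself give the precision of its fold change. In the same range of average log2 CPM, 166 of 6789 genes had an implied SE above 0.8, whereas those of the 10 lay between 0.19 and 0.37. One such gene is the receptor gene Alk, named after its values were seen, which the authors' deposited table gives an average log2 CPM of 5.24, and whose implied SE was 0.96.

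The wider terminal system held no called gene among 12 tested, and 10 of the 12 intervals lay within a 2-fold change. Over all tested genes 5.10% were called, so 0 in a list of 12 is near that share. The list adds to the 4 genes above the eggshell proteins of fs(1)N, clos and fs(1)M3 (polehole), which help to anchor Torso-like, the furin proteases, the target genes tll and hkb, and also ndl and pip, which serve the dorsoventral system in the same space around the egg. Its members had a median log2 fold change of 0.22, and 11 of 12 were positive. The smallest unadjusted p, 0.0087, belonged to pip, a sulfotransferase gene expressed in ventral follicle cells, whose log2 fold change in the authors' deposited table was 0.63 (adjusted p = 0.15). Fur2, a furin protease gene with the highest average log2 CPM of the list, was at 0.08 in the authors' deposited table. Of the embryonic targets, hkb stood at -0.80 (implied SE 0.43, adjusted p = 0.57) per the authors' deposited table. The other target, tll, is listed at exactly 0 for both its fold change and its likelihood ratio. Its average log2 CPM of 2.94 in the authors' deposited table need not come from the 6 samples, since the libraries that enter it are not stated. Both hkb and tll were named after their values were seen.

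Ligands of the EGF receptor and the proteins that process them gave no call among 12 tested genes, none of which had an unadjusted p under 0.05 by the authors' likelihood ratio test. The shares over all tested genes were 5.10% called and 11.4% under that unadjusted p, so counts of 0 among 12 genes say little. Their median log2 fold change was 0.13. The highest average was that of spi, which encodes Spitz, the widely used ligand of the receptor in later development. The average log2 CPM per kb was 7.37 for spi, 4.58 for Krn, 2.33 for grk and 2.30 for vn, all from the authors' deposited table. Their log2 fold changes in the authors' deposited table were -0.09 for spi, 0.08 for Krn and 0.31 for vn, beside 0.04 for grk. The smallest unadjusted p of the list, 0.13, was that of brn, a glycosyltransferase gene needed in the germ line for signalling to the follicle cells, at 0.31 in the authors' deposited table.

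Feedback and inhibitor genes, adaptors and the core cascade were likewise without calls. Over all tested genes 5.10% were called, and 11.4% had an unadjusted p under 0.05 by the authors' likelihood ratio test. Counts of 0 in lists this small say little beside those shares. All 10 inhibitors and feedback genes had intervals within a 2-fold change, and no raw p of these 10 was under 0.05 by the authors' likelihood ratio test. Among them kek1, a transmembrane inhibitor and target of the EGF receptor in follicle cells, had the smallest unadjusted p, 0.077, and stood at 0.39 on the log2 scale in the authors' deposited table. Cbl, which encodes a ubiquitin ligase that removes receptors from the membrane, was at 0.03 in the authors' deposited table. The 9 adaptors and exchange factors, csw among them, ran from -0.07 to 0.21, and all 9 intervals lay within a 2-fold change. Sos, the exchange factor that loads Ras with GTP, was at 0.14 and drk, the adaptor that brings it to the receptor, at -0.04 in the authors' deposited table. For the Ras to ERK cascade with its scaffolds, chaperones and phosphatases, 21 genes were tested, 0 were called and 0 had an unadjusted p under 0.05 by the authors' likelihood ratio test. Of these 21 genes, 17 lie outside the 10 described above. The median log2 fold change of the 21 was -0.01, and the 20 intervals that could be computed all lay within a 2-fold change. The scaffold gene ave was farthest from 0, at -0.30 (implied SE 0.23) per the authors' deposited table. Hsp83, the chaperone gene with the highest average log2 CPM of the list, was at -0.08 in the authors' deposited table.

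Of 11 tested nuclear effectors of ERK 0 were called, beside 5.10% of all tested genes. By the authors' likelihood ratio test 3 had an unadjusted p under 0.05, which is 27.3% against the 11.4% of all tested genes. The 3 did not share a direction. Ets96B, a gene of the ETS transcription factor family, was at -2.08 with an average log2 CPM of only -2.86 in the authors' deposited table. The other two, br and mirr, which the EGF receptor regulates in dorsal follicle cells, had log2 fold changes of 0.53 (adjusted p = 0.36) and 0.42 (adjusted p = 0.48) per the authors' deposited table, and were named after their values were seen. The repressor gene aop, with the highest average log2 CPM of the list, was at 0.25 in the authors' deposited table.

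Among 17 receptor tyrosine kinase genes, which include tor, Egfr and InR, 1 was called with a positive and 1 with a negative fold change, beside the 5.10% called among all tested genes. Nrk, a receptor gene expressed in the nervous system, stood at 0.93 (implied SE 0.26, adjusted p = 0.010) per the authors' deposited table. Drl-2, a receptor gene of the Ryk family, was at -3.27 (adjusted p = 0.046), but its average log2 CPM of -2.95 was low in the authors' deposited table. An unadjusted p under 0.05 was found for 5 of the 17, Egfr among them, which is 29.4% against 11.4% of all tested genes. Of the 17 intervals, 6 lay within a 2-fold change, against 53.7% of the intervals of all tested genes. By average log2 CPM per kb, Egfr was number 4 and tor number 5 of the 17, with Eph the highest at 5.94 from the authors' deposited table. Eph, a guidance receptor gene, was at 0.07 in the authors' deposited table. InR, the receptor that the study targets, was at 0.25 (implied SE 0.26) per the authors' deposited table. Whether reads of InR-DN were counted as InR is not given, so this need not be the RNA of the oocyte's own gene alone. The 12 genes of the JNK and p38 kinase pathways, which run parallel to ERK, had 0 calls and 0 unadjusted p under 0.05 by the authors' likelihood ratio test, with a median of -0.03. In that list slpr, a kinase gene of the JNK pathway, was at 0.23 and msn, a kinase gene above it, at 0.0039 in the authors' deposited table.

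Genes that place or translate the grk message in the oocyte gave no call among 16 tested, beside 5.10% of all tested genes. Of their intervals, 15 lay within a 2-fold change. Their median log2 fold change was 0.09, and a raw p under 0.05 was found for 1 of the 16. That gene was fs(1)K10, which is needed to confine grk RNA to the dorsal front corner of the oocyte, at 0.61 (implied SE 0.22, adjusted p = 0.11) per the authors' deposited table. The RNA-binding protein gene sqd, which acts in the same localisation and had the highest average log2 CPM, was at 0.14 in the authors' deposited table.

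**Figure D4:**
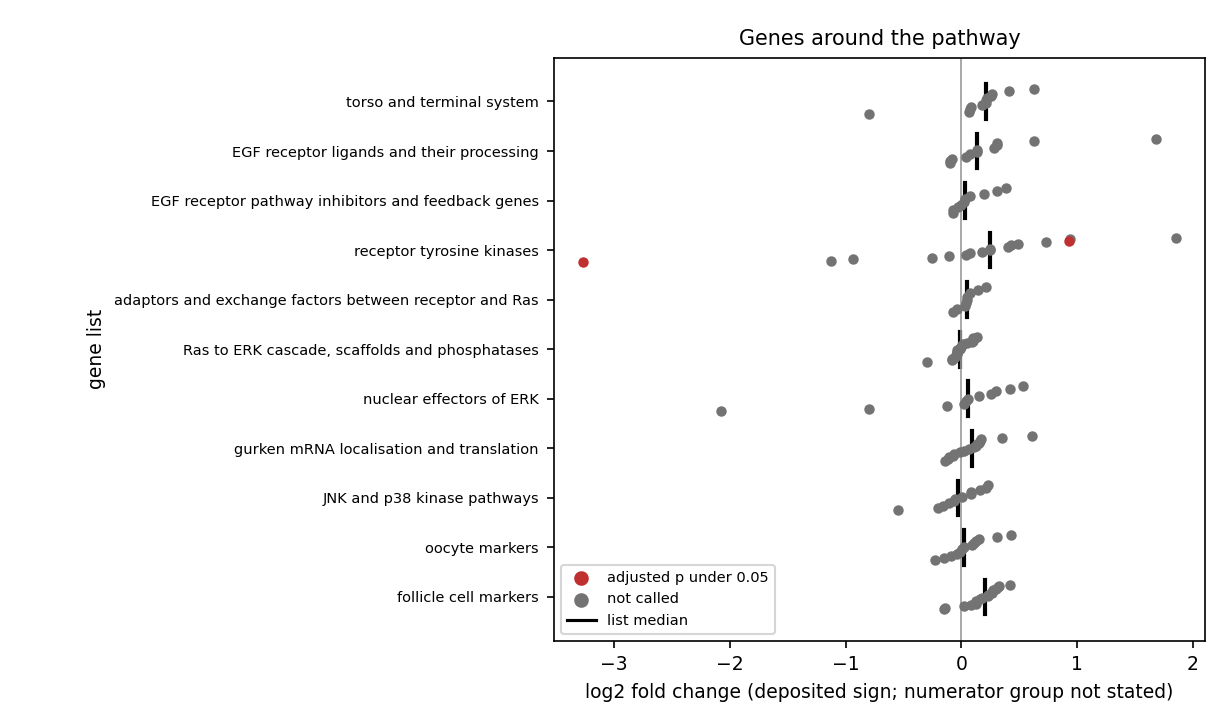
Log2 fold changes in the authors' deposited table for the tested genes of 9 lists around the pathway and 2 lists of cell markers, with called genes in red and black bars at the list medians. Calls are seen only for Nrk and Drl-2 in the receptor tyrosine kinase list, and the cascade list is centred at -0.01.

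No marker of the labelled oocytes was called, and the averages do not show which markers were present in the 6 samples. All 13 oocyte markers were tested, with a median log2 fold change of 0.02, 0 calls and 0 unadjusted p under 0.05 by the authors' likelihood ratio test. CycB, a cyclin gene with the highest average among them, was at 0.13 and nos, a gene of the posterior germ plasm, at 0.43 in the authors' deposited table. Follicle cells, which express tsl and Egfr during oogenesis, were represented by 18 markers, of which 16 were positive, 0 were called and 0 had an unadjusted p under 0.05. Their median log2 fold change was 0.20, their average log2 CPM ran from 0.61 to 12.31, and none was listed at 0. In that list the chorion gene Cp15 was at -0.15 and slbo, a transcription factor gene of migrating follicle cells, at 0.42 in the authors' deposited table. The part of follicle cells in the positive values of Egfr and tsl was not tested, and in such bulk RNA fewer cells of a type and less RNA per cell cannot be told apart. Markers of some other tissues were called. Of 12 gut markers 10 were called positive and 1 negative, beside the 5.10% called among all tested genes. Of 10 fat body markers 2 were called positive, and of 8 haemocyte markers 1 was called positive. In the fat body list 6 of the 10 markers had a low average log2 CPM, below 0, and the 2 called ones were among them. The median log2 fold change was 5.44 for the gut and 1.00 for the fat body list. It was 0.0004 for the haemocyte list, where 4 values were positive and 4 negative. The lists of 10 muscle and 7 neuronal markers had 0 calls. By the authors' likelihood ratio test, 3 muscle and 2 neuronal markers had an unadjusted p under 0.05. That is 30.0% and 28.6%, against 11.4% of all tested genes. All 10 muscle markers had positive log2 fold changes, against 55.9% of all tested genes, with a median of 0.51. Their median average log2 CPM was 1.23, against 7.22 for Egfr, whose log2 fold change was 0.43. Act87E, the muscle marker with the highest average, was at 0.01 in the authors' deposited table. Of the 7 neuronal markers 5 were negative, with a median of -0.17. The part of these tissues in the values of the 10 pathway genes was not tested.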

How the data were processed

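RNA of stage 14 oocytes was sequenced from 3 GFP control and 3 InR-DN samples. Reads passed through FastQC, Bowtie and TopHat, per the submitters' processing notes, which give no version. For the build and the counting tool, nothing is given in the sources used here. Per the file headers, the authors' deposited table holds for each gene the log2 fold change, the average log2 CPM, the likelihood ratio (a score), its p-value and the adjusted p-value. No count per sample was used, so no model was refitted, the depth is unknown and precision rests on the authors' model.

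The adjusted p-values differed by at most 3.6e-15 from those recomputed by the Benjamini-Hochberg method over 14862 rows. A gene was called at an adjusted p under 0.05. The SE was the size of the log2 fold change divided by the square root of the likelihood ratio, where that was above 0.0001. The adjustment and the SE were also run on simulated normal scores with a known SE. That run checks the arithmetic only, and not whether the implied SE or its interval holds for these data. The change needed for a call is the SE times the square root of the smallest likelihood ratio of a called gene, 9.37. Exon lengths and overlaps came from Ensembl release 115 (BDGP6) and gene synonyms from RefSeq (Release 6 plus ISO1 MT). Each length was the union of the exons of all annotated transcripts of the gene. Because the authors' build is not given, no coordinates are printed. Of 201 list entries in 16 lists, 5 matched by synonym and 1, bru1, matched no single row.

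The members and lists were chosen with earlier results of these data known. Named are the 10 genes and, in each list, called genes (for tissue marker lists, by count), the gene with the highest average and that with the smallest p. Also named are Krn and vn as ligands beside grk, InR as the targeted receptor, and Akap200 and Mulk for their overlaps. Genes marked as named after their values were seen lie outside this rule. Python 3.11.15 was used with scipy 1.17.1, numpy 2.4.6 and pandas 2.3.3, and figures were drawn in matplotlib 3.10.9. Alternatives changed the filter, the threshold, the adjustment and the centring.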

Additional observations from a re-analysis of the deposited data

How the results depend on the processing

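The count of 0 called genes among the 10 held under 7 of 8 alternatives and became 1, Egfr, with an unadjusted p under 0.05. Some of the 7 were stricter than the main setting and could only keep a count of 0. These were an adjusted p under 0.01, the Bonferroni adjustment and a fold change of at least 2 as well. The count over all genes in the authors' deposited table, 667, became 344 without genes of average log2 CPM below 0, 104 without those below 3, 294 by Bonferroni adjustment and 1488 by unadjusted p. With an average of at least 3 required, trk and tsl were left out. The adjusted p of Egfr, from the authors' likelihood ratio test, was 0.42 in the main setting. It was 0.49 without genes of average log2 CPM below 0, and 0.37 without rows of likelihood ratio 0. For the filter at 3 and the Bonferroni adjustment, its adjusted p was not recorded. With the median of all tested genes subtracted, the median of the 10 was 0.05. No paired analysis was possible because values of single samples were not used here, and for the same reason no replicate could be left out.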
